A study of Mus musculus with 12 samples.

Results

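The comparison described here sets miR-155KI against wild-type (WT) in NK1.1+ invariant natural killer T (iNKT) cells of the mouse thymus. Its members are 6 of the 12 RNA-seq libraries of the series, 3 from miR-155KI and 3 from WT mice, taken by the names of their columns in the deposited count table. All mice were C57BL/6J and 7 weeks old. The miR-155KI mice carried CD4Cre and 2 copies of a miR-155 knock-in allele at Rosa26, and the WT mice were littermates that carried the knock-in allele without CD4Cre. CD4Cre acts throughout the T cell lineage from the CD4-expressing thymocyte on, so the transgene was not limited to iNKT cells. Cells were depleted of CD8+ thymocytes and sorted as TCRβ+ CD1d-tetramer+, and the NK1.1+ gate takes the last thymic stage, stage 3. The study asked which transcripts miR-155 alters when it is kept high in cells that normally hold it low. Neither the labels nor the methods tie a library to a mouse, and the methods speak of pooled replicates, so every p-value below measures the spread between these libraries, which may be partly technical.

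iNKT cells carry a nearly invariant T cell receptor that reads lipids on CD1d, and they gain effector function before they leave the thymus. Stage 3 cells are mostly iNKT1 cells, which use T-bet, make IFN-γ and bear NK cell receptors. A microRNA pairs through its seed with the 3′ UTR of messenger RNAs and lowers their level or translation, and miR-155 is processed from the transcript Mir155hg and is known for its induction in activated lymphocytes and myeloid cells.

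The mature sequence and a few of its candidate sites are shown because the target results below rest on these letters. In miR-155-5p (RefSeq, GRCm38.p6, chr16:84714143-84714165, plus strand) the capitals mark the seed, bases 2 to 8. In the sites, 23 bases of the longest annotated 3′ UTR in GENCODE M21 (GRCm38), the capitals mark the 8mer match to that seed. Jarid2 and Tab2 are genes the study names as targets. Tspan14, Rab8b, Plekhm1, Tgfa and Fbxl2 were the 8mer genes with the smallest p among those lower in miR-155KI. Ntrk3 and Cacybp were among the 8mer genes with the smallest p of those that were higher. Csf1r, Spi1 and Thoc2, also 8mer genes that were higher, are described further down without their sites.
miR-155-5p: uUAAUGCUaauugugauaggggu
Jarid2 at chr13:44920078-44920100 (plus strand): aactgattttgttttAGCATTAA
Jarid2 at chr13:44920851-44920873 (plus strand): tgtgtccctcacatcAGCATTAA
Tab2 at chr10:7906691-7906713 (minus strand): tgccataaggtagaaAGCATTAA
Tspan14 at chr14:40907405-40907427 (minus strand): gcctcgtttctccatAGCATTAA
Tspan14 at chr14:40906447-40906469 (minus strand): ctattaaaacaaaaaAGCATTAA
Rab8b at chr9:66847321-66847343 (minus strand): gcttaaagacagcagAGCATTAA
Plekhm1 at chr11:103365465-103365487 (minus strand): ctgcacccccgagctAGCATTAA
Tgfa at chr6:86272933-86272955 (plus strand): tcctatttattttcaAGCATTAA
Fbxl2 at chr9:113976991-113977013 (minus strand): ttcaaaataatacacAGCATTAA
Ntrk3 at chr7:78178508-78178530 (minus strand): cttataacaatccatAGCATTAA
Cacybp at chr1:160202595-160202617 (minus strand): tttgtagggagatgaAGCATTAA

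Of 12991 genes with enough counts for the test, 3 rose in miR-155KI (0.0231%) and 0 fell at an adjusted p under 0.05 in edgeR's quasi-likelihood test, and all 3 are named in the next paragraphs. At an unadjusted p under 0.05, 681 genes were higher (5.24%) and 858 were lower (6.6%). In all, 52.4% of the genes had a log2 fold change above 0 and 47.6% below. In 1056 genes (8.13%) every miR-155KI library lay above every WT library, and in 1132 (8.71%) every one lay below. Counts for the gene lists below, at an unadjusted p under 0.05 or without overlap, are to be read beside these shares of all genes. The median log2 fold change of all genes was 0.02. DESeq2 on the same 6 libraries called 166 genes higher (1.17% of 14159) and 150 lower (1.06%), and limma-voom called 1 higher and 0 lower. The count of calls turned on WT replicate 1, since without it 15 genes were called higher (0.109% of 13775) and 110 lower (0.799%). It also moved to 1 higher and 0 lower without WT replicate 2 or without WT replicate 3, to 2 and 0 without miR-155KI replicate 1, and to 5 and 0 without miR-155KI replicate 2. A fit of all 12 libraries called 42 higher (0.292% of 14401) and 18 lower (0.125%).

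Total counts ran from 14302160 to 20518257 per library, with 18062 to 23639 genes at 1 count or more. The biological coefficient of variation was 0.369, against 0.211 between the libraries of the NK1.1- pool. The correlation of log CPM was 0.983 between WT replicates 2 and 3, 0.965 and 0.967 between WT replicate 1 and these, and 0.918 to 0.930 among the miR-155KI libraries. Xist, the RNA of the inactive X chromosome, was at 11.0, 138 and 144 CPM in WT replicates 1 to 3 and at 8.72, 33.7 and 10.1 CPM in miR-155KI. The summed level of Ddx3y, Eif2s3y, Kdm5d and Uty, which lie on the Y chromosome, was 199, 16.7 and 14.2 CPM in WT and 221, 170.0 and 243 CPM in miR-155KI. WT replicate 1 and the miR-155KI libraries thus shared low Xist and high Y-linked RNA, while WT replicates 2 and 3 had the reverse. The labels give no sex and the methods describe the mice as matched for it, and between miR-155KI and WT replicates 2 and 3 the genotype and the sex-linked RNA cannot be told apart. For some genes and lists the result is therefore also given against WT replicate 1 alone, a fit that takes the spread from the miR-155KI libraries. Where no such value is printed, the result uses all WT libraries and this limit remains.

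Mir155hg, the precursor transcript of miR-155, was higher in every miR-155KI library than in any WT library, as the labels have it. The knock-in allele lies at Rosa26, so the endogenous gene was not the locus altered. Mir155hg was at 11.7, 11.5 and 11.0 CPM in WT and 113, 123 and 91.9 CPM in miR-155KI, 11.4 ± 0.398 against 109 ± 15.9 CPM (SD, n = 3), and the groups did not overlap. CPM here is the count scaled to library size by TMM. The log2 fold change was 3.26 ± 0.18 (SE, edgeR adjusted p = 3.31e-05), and against WT replicate 1 alone it was 3.21. The table has 1 row for the gene (GRCm38, chr16:84703167-84715245), so transcripts of the knock-in cassette and of the endogenous gene were not separated.

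C1qa and C1qc, which encode chains of complement C1q and are made by macrophages, were the other genes that rose. C1qc (chr4:136889804-136893065) was at 2.14, 1.84 and 1.77 CPM in WT and 21.6, 72.0 and 20.4 CPM in miR-155KI, with a log2 fold change of 4.30 ± 0.52 (edgeR adjusted p = 0.0286). C1qa (chr4:136895917-136898803) was at 2.49, 1.49 and 1.92 CPM in WT and 18.1, 66.3 and 24.2 CPM in miR-155KI, with 4.19 ± 0.52 (edgeR adjusted p = 0.0286). The groups did not overlap for either gene, and miR-155KI replicate 2 was the highest library for both. Neither call held without WT replicate 2 (adjusted p = 0.106 for both) or without WT replicate 3 (0.150 for both). C1qc also missed the threshold without miR-155KI replicate 1 (adjusted p = 0.0592) and C1qa without miR-155KI replicate 3 (0.0555). Both calls were lost in limma-voom (adjusted p = 0.333 for C1qc and 0.305 for C1qa), against WT replicate 1 alone, and with the log2 ratio of Y-linked RNA to Xist as a covariate (edgeR adjusted p = 0.703 for both).

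These genes belong to a list of 20 macrophage and dendritic cell markers, of which 16 were tested and 11 were higher at an unadjusted p under 0.05, against 5.24% of all genes. Over the 16 the median on the log2 scale was 3.45. C1qb, the remaining C1q chain, was at 2.49, 1.72 and 2.56 CPM in WT and 26.0, 90.9 and 16.6 CPM in miR-155KI (adjusted p = 0.125). Apoe, a lipid carrier of macrophages, was at 19.7, 16.8 and 16.1 CPM against 133, 472 and 111 CPM, Csf1r, the receptor for M-CSF, at 0.449, 1.21 and 1.52 CPM against 5.49, 31.8 and 5.97 CPM, and Vcam1, an adhesion molecule of thymic macrophages, at 3.34, 1.72 and 1.38 CPM against 11.8, 66.9 and 15.4 CPM. Lyz2, the lysozyme of myeloid cells, was instead highest in replicate 1, with 140.2, 39.9 and 13.1 CPM in miR-155KI and 3.84, 3.45 and 4.23 CPM in WT. Adgre1, which encodes F4/80, was at 1.80, 0.345 and 0.934 CPM in WT and 4.33, 21.8 and 6.21 CPM in miR-155KI. The summed level of the 20 markers was 243 to 279 CPM in WT and 528 to 1263 CPM in miR-155KI, and no listed marker was at 0 counts in all 6 libraries. In bulk RNA a change in the number of cells of a type and a change in RNA per cell cannot be told apart.

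Markers of other cells also differed from library to library within miR-155KI. The summed level of 14 double-positive thymocyte markers was 265 to 290.1 CPM in WT and 686, 248 and 337 CPM in miR-155KI replicates 1 to 3. Cd8a, a coreceptor of immature and CD8 T cells, stood at 0.748, 1.09 and 1.47 CPM in WT and 24.0, 0.732 and 2.25 CPM in miR-155KI, and Cd24a, which stage 3 cells have lost, at 1.05, 1.09 and 3.49 CPM and 55.4, 1.52 and 4.51 CPM. Replicate 1 was the high library for both genes, and the groups overlapped. The 16 erythroid, neutrophil and epithelial markers summed to 42.5 to 203 CPM in WT and to 462, 56.5 and 1220.1 CPM in miR-155KI, and S100a8, a neutrophil calprotectin chain, was at 175, 3.15 and 17.1 CPM in miR-155KI and 2.84, 2.24 and 5.85 CPM in WT. The MHC class II gene H2-Ab1 was at 1.94, 2.18 and 6.34 CPM in WT and 28.8, 23.0 and 8.77 CPM in miR-155KI, without overlap (log2 fold change 2.53, adjusted p = 0.201). The 9 NK and innate lymphoid cell markers in the table summed to 37.7 to 38.2 CPM in WT and 36.5 to 56.6 CPM in miR-155KI. At an unadjusted p under 0.05, 6 of 13 tested double-positive markers were higher and 0 lower (median 1.77, or 0.49 without miR-155KI replicate 1), as were 3 of 11 erythroid, neutrophil and epithelial markers (2.50, or -0.22 without miR-155KI replicate 3, 1.56 without miR-155KI replicate 1 and 3.87 without WT replicate 3) and 3 of 13 B cell and MHC class II markers. The median of the B cell list was 0.37. Omitting miR-155KI replicate 1 gave 0.17, WT replicate 2 gave 0.22, WT replicate 3 gave 1.32, and each of the other 3 libraries gave 0.59 to 0.63. The NK and innate lymphoid list had 1 higher and 1 lower of 7, and its median of 0.01 ranged from -0.29 to 0.27 as single libraries were left out. The part of these cells in the results was not tested beyond leaving out libraries.

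**Figure D1:**
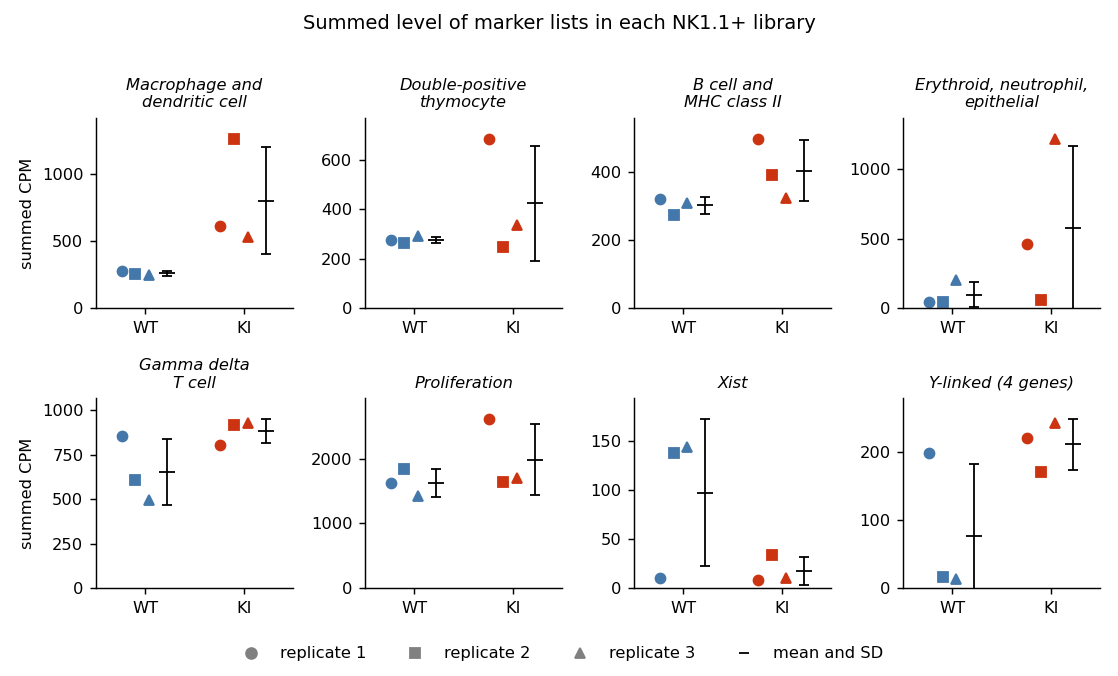
Summed TMM-normalized CPM of marker lists, Xist and the 4 Y-linked genes in each NK1.1+ library (symbols are replicates 1 to 3, bars are the mean and SD of 3 libraries, cut at 0 where they pass it). The macrophage list was higher in all 3 miR-155KI libraries (528 to 1263 CPM) than in WT (243 to 279 CPM), the double-positive and proliferation lists were highest in miR-155KI replicate 1, and WT replicate 1 had low Xist and high Y-linked RNA like the miR-155KI libraries.

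The sorted identity was present in both genotypes. Klrb1c, which encodes NK1.1, was at 747, 353 and 438 CPM in WT and 453, 468 and 627 CPM in miR-155KI. Zbtb16, which encodes PLZF, was at 209.7, 231 and 295 CPM and 228, 244 and 209 CPM, and Tbx21, which encodes T-bet, at 422, 474 and 360.0 CPM and 261, 497 and 415 CPM. The groups overlapped for all 3 genes, with log2 fold changes of 0.01 ± 0.25, -0.11 ± 0.15 and -0.10 ± 0.21. The invariant receptor segments Trav11 and Traj18 had log2 fold changes of -0.02 ± 0.17 and -0.03 ± 0.20, and the β segments Trbv13-2, Trbv29 and Trbv1 of 0.01, 0.22 and -0.03. Il2rb, the receptor chain for IL-2 and IL-15, was at 2314, 2414 and 2203 CPM in WT and 1634, 2212 and 2156 CPM in miR-155KI, and Cd44, an activation marker used in the sort, at 283, 276 and 309 CPM and 176, 322 and 234 CPM. Without WT replicate 1, the log2 fold change of Klrb1c was 0.40, and against it alone -0.54. Not all identity markers overlapped between the groups. Cd3e, a CD3 chain, was lower in every miR-155KI library, at 1010.4, 921 and 813 CPM in WT and 729, 766 and 804 CPM in miR-155KI (-0.26 ± 0.13). Ccl5 was also lower and Il17rb higher without overlap, as given below, while Cxcr3 and Klrk1 overlapped.

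Among 20 tested iNKT1 factors and cytokine receptors, 5 were lower and 0 higher at an unadjusted p under 0.05, and the list's median was -0.07, which ranged from -0.22 without miR-155KI replicate 2 to 0.01 without miR-155KI replicate 1. Il12rb2, the signalling chain of the IL-12 receptor, was at 158, 168 and 176 CPM in WT and 83.0, 80.4 and 115 CPM in miR-155KI, a log2 fold change of -0.85 ± 0.17 (adjusted p = 0.201). Ifngr1, the ligand-binding chain of the IFN-γ receptor, was at 515, 530.3 and 686 CPM and 254, 394 and 375 CPM, -0.76 ± 0.18 (adjusted p = 0.230). For both receptor chains the groups did not overlap, WT replicate 1 lay with the other WT libraries or just below them, and against it alone the log2 fold changes were -0.78 and -0.60. DESeq2 called both genes lower (adjusted p = 0.00752 and 0.0492). Il12rb1, the shared IL-12 and IL-23 receptor chain, was at 108, 105 and 93.9 CPM in WT and 76.4, 158 and 74.2 CPM in miR-155KI, with overlap. Bhlhe40, a repressor needed for cytokine output, was at 385, 1101 and 1068 CPM in WT and 252, 331 and 393 CPM in miR-155KI, and Il21r, the IL-21 receptor, at 237, 496 and 758 CPM and 208, 250.3 and 315 CPM. In these last genes WT replicate 1 lay inside the miR-155KI range, and against it alone their log2 fold changes were -0.25 and 0.11.

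The NK receptor list held genes at higher and at lower levels in miR-155KI. Of 27 tested receptors and adaptors, 4 were higher and 1 lower at an unadjusted p under 0.05, against 5.24% and 6.6% of all genes. Without overlap, 2 were higher and 1 lower, against 8.13% and 8.71% of all genes. The median was 0.15, which ranged from -0.13 to 0.36 as single libraries were left out. It was -0.18 against WT replicate 1 alone, so no direction is drawn from the list. The lower gene was Klrc1, at 147, 102 and 101 CPM in WT and 61.8, 80.6 and 96.8 CPM in miR-155KI, a log2 fold change of -0.55 without overlap. Klra1, which encodes the MHC class I receptor Ly49A, was at 222, 143 and 138 CPM in WT and 319, 347 and 534 CPM in miR-155KI, without overlap, a log2 fold change of 1.25 ± 0.23 (edgeR adjusted p = 0.201, DESeq2 2.66e-04). Against WT replicate 1 alone it was 0.84. Ncr1, the activating receptor NKp46, was at 0.798, 2.87 and 0.737 CPM in WT and 6.13, 8.10 and 7.31 CPM in miR-155KI, also without overlap. Klra7, which encodes Ly49G, was at 107, 56.5 and 68.1 CPM and 134, 98.0 and 154 CPM, and Cd160, a receptor for HVEM, at 246, 185 and 164 CPM and 237, 318 and 369 CPM. The groups overlapped for Klra7 and Cd160 through WT replicate 1. Ly49 genes lie in 1 cluster and share sequence, so reads can be split between them and the separate values are uncertain.

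Cytotoxic granule genes had a median of -0.16 over 17 tested, with 2 higher and 3 lower at an unadjusted p under 0.05. That median was -0.29 without miR-155KI replicate 2, -0.07 without miR-155KI replicate 3 and -0.10 without miR-155KI replicate 1. Gzma, granzyme A, was at 156, 147 and 82.2 CPM in WT and 73.6, 179 and 100.5 CPM in miR-155KI. Ctsc, the protease that activates granzymes, was at 113, 107 and 107 CPM and 114, 214 and 148 CPM, and Serpinb6b, an inhibitor of granzyme A, at 105, 137 and 164 CPM and 70.8, 94.3 and 97.0 CPM. Gzma overlapped between the groups, whereas Ctsc was higher and Serpinb6b lower in every miR-155KI library. Of 17 chemokines and cytokines, 1 was lower at an unadjusted p under 0.05, and the median was -0.32, or -0.20 without miR-155KI replicate 2. Ccl5, an iNKT1 chemokine, was at 301, 332 and 276 CPM in WT and 116, 237 and 221 CPM in miR-155KI, and Xcl1, which attracts dendritic cells, at 463, 447 and 449 CPM and 253, 394 and 403 CPM. For both chemokines miR-155KI replicate 1 was lowest, and without it their log2 fold changes were -0.38 and -0.16.

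The list of 18 residency and exit genes held 3 higher and 4 lower at an unadjusted p under 0.05. Its median was -0.15, or -0.02 without miR-155KI replicate 1 and -0.29 without miR-155KI replicate 2. S1pr1, the sphingosine-1-phosphate receptor that lets T cells leave the thymus, was at 33.0, 23.0 and 21.3 CPM in WT and 92.5, 43.7 and 50.3 CPM in miR-155KI (1.27 ± 0.30, adjusted p = 0.215). Itga4, the α4 integrin, was at 24.8, 24.1 and 20.8 CPM and 70.0, 50.1 and 35.5 CPM (1.16 ± 0.25). Neither gene overlapped between the groups, and miR-155KI replicate 1 was the highest library in both. Without miR-155KI replicate 1, which also held the highest Cd8a, Cd24a and S100a8, the log2 fold changes were 0.89 and 0.91. Cd69, which retains cells by opposing S1PR1, was at 161, 208 and 154 CPM in WT and 117, 154 and 98.2 CPM in miR-155KI, with overlap. Cxcr4, a chemokine receptor of immature thymocytes, was at 15.8, 34.7 and 38.5 CPM and 13.2, 19.0 and 11.1 CPM, with WT replicate 1 inside the miR-155KI range.

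The iNKT2 list held genes at higher and at lower levels. Of its 22 genes, 4 were higher and 2 lower at an unadjusted p under 0.05, and the median was 0.09, or 0.03 without miR-155KI replicate 1 and 0.18 without miR-155KI replicate 2. Il17rb, the IL-25 receptor chain, was at 53.0, 41.4 and 35.7 CPM in WT and 91.6, 55.6 and 55.8 CPM in miR-155KI, Izumo1r, which encodes folate receptor 4, at 554, 475 and 403 CPM and 645, 703 and 637 CPM, and Slamf6, a receptor of iNKT selection, at 50.3, 43.5 and 30.1 CPM and 87.5, 63.2 and 59.8 CPM. All 3 were higher in each miR-155KI library than in each WT library, with log2 fold changes of 0.64, 0.47 and 0.76. Il4ra, the IL-4 receptor, was at 133, 289 and 452 CPM in WT and 91.2, 113 and 111 CPM in miR-155KI, and Nfil3, a leucine zipper factor of innate lymphocytes, at 28.5, 79.0 and 70.1 CPM and 14.0, 16.2 and 23.9 CPM. Both were lower without overlap, but WT replicate 1 lay nearer to miR-155KI than to the other WT libraries. Their log2 fold changes were -1.47 and -1.72 with all controls, and -0.35 and -0.67 against WT replicate 1 alone. Among 23 tested iNKT17 genes, 2 were lower and 0 higher at an unadjusted p under 0.05, with a median of -0.26 that was -0.15 without WT replicate 1 and -0.11 at 10 counts or more in every library.

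Genes of the early stages 0 and 1 had a median of 0.38 over 22 genes, with 6 higher and 4 lower at an unadjusted p under 0.05, and the median was 0.11 without miR-155KI replicate 1. Id3, an inhibitor of E proteins that follows T cell receptor signals, was at 87.1, 81.5 and 58.1 CPM in WT and 153, 174 and 119 CPM in miR-155KI, a log2 fold change of 0.98 ± 0.20 (adjusted p = 0.201, DESeq2 0.00253) that was 0.98 without that library. Ldhb, a lactate dehydrogenase chain, was at 29.0, 15.8 and 33.0 CPM and 72.9, 31.5 and 61.1 CPM. The groups were apart for Id3 and overlapped for Ldhb. Egr1, an immediate early gene, went the other way, at 168, 326 and 168 CPM in WT and 130, 104 and 101 CPM in miR-155KI. It did not overlap between the groups (-0.99 ± 0.25, edgeR adjusted p = 0.245), and Bcl6, Nr4a1 and Cd69 were the other lower genes.

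**Figure D2:**
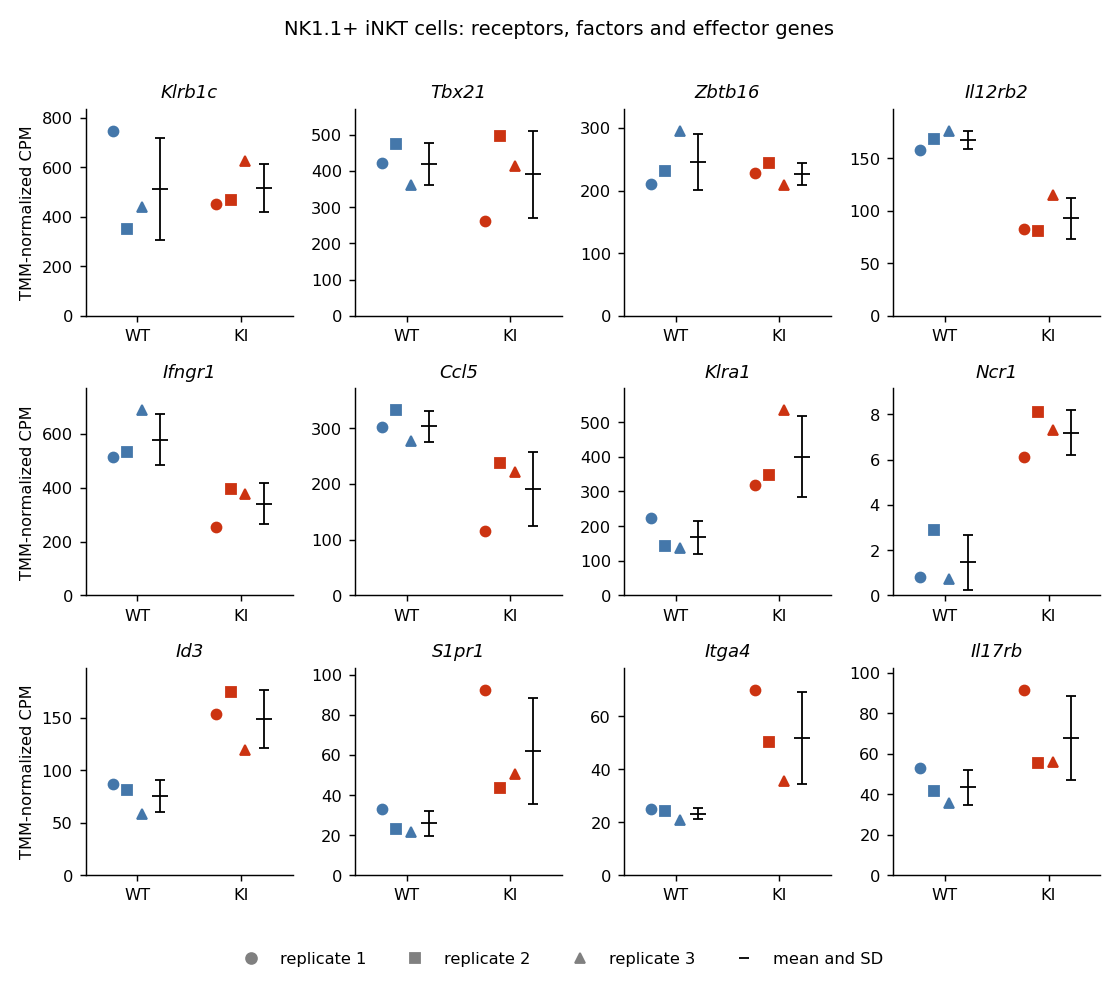
TMM-normalized CPM of 12 iNKT genes in each NK1.1+ library (linear axes from 0, symbols are replicates, bars are the mean and SD of 3 libraries, cut at 0 where they pass it). Klrb1c, Tbx21 and Zbtb16 overlap between WT and miR-155KI (KI), Il12rb2, Ifngr1 and Ccl5 lie lower and Klra1, Ncr1, Id3, S1pr1, Itga4 and Il17rb higher in every miR-155KI library.

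WT replicate 1 lay apart from the other WT libraries in a set of genes that T cell receptor and stress signals induce quickly. Nr4a2, a nuclear receptor of the immediate early response, was at 14.1, 98.3 and 77.9 CPM in WT and 14.4, 14.2 and 13.8 CPM in miR-155KI. Its relative Nr4a3 was at 67.2, 261 and 222 CPM and 56.9, 57.0 and 57.9 CPM, and Sik1, a kinase induced by cAMP, at 75.2, 258 and 213 CPM and 54.8, 31.5 and 41.6 CPM. In all 3 genes WT replicates 2 and 3 were above the other 4 libraries. Against WT replicate 1 alone the log2 fold changes of Nr4a3 and Sik1 were -0.24 and -0.83, and without it they were -2.06 and -2.46 (edgeR adjusted p = 5.36e-04 and 0.00143). Bcl2l11, which encodes the death factor BIM, was at 61.9, 185 and 283 CPM in WT and 40.5, 42.9 and 56.2 CPM in miR-155KI, with the same order. Of the 110 genes called lower without WT replicate 1, that library lay below both other WT libraries in 110, nearer to the miR-155KI mean in 109 and inside the miR-155KI range in 54. These genes were chosen by the height of WT replicates 2 and 3 and 0 genes were called lower with all 3 controls, so the place of WT replicate 1 in them is largely set by that choice and is no support for a difference. Of the 15 called higher, it lay beyond both WT libraries towards miR-155KI in 13 and inside the miR-155KI range in 5. Of the 21 immediate early genes, 9 were lower and 2 higher at an unadjusted p under 0.05, with a median of -0.28, or -0.15 against WT replicate 1 alone. Leaving out a miR-155KI library moved it further, to -0.08 without replicate 1 and -0.48 without replicate 2.

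The NF-κB list, too, was lower mainly against WT replicates 2 and 3. Of 27 genes, 12 were lower and 0 higher at an unadjusted p under 0.05, against 6.6% and 5.24% of all genes. Without overlap, 6 were lower and 1 higher, against 8.71% and 8.13% of all genes. The median was -0.51, and it was -0.47 without WT replicate 1, -0.32 without WT replicate 3 and -0.06 against WT replicate 1 alone. Rel, the subunit c-Rel, was at 80.0, 213 and 213 CPM in WT and 64.6, 65.9 and 63.5 CPM in miR-155KI, and Relb, a subunit of the alternative pathway, at 116, 177 and 251 CPM and 83.4, 109 and 96.9 CPM. WT replicate 1 was close to miR-155KI for both, and against it alone the log2 fold changes were -0.32 and -0.28, where with all 3 controls they were -1.39 and -0.91. Traf1, an adaptor of TNF receptors and an NF-κB target, was at 121, 138 and 149 CPM in WT and 86.7, 65.7 and 75.0 CPM in miR-155KI (-0.84 ± 0.16, adjusted p = 0.201). Tab2, an adaptor of the kinase TAK1, was at 46.7, 50.7 and 55.5 CPM and 25.9, 37.6 and 27.9 CPM (-0.74 ± 0.20, adjusted p = 0.262). For Traf1 and Tab2 the 3 WT libraries stayed together above miR-155KI, with -0.68 and -0.62 against WT replicate 1 alone. The survival genes Bcl2a1b and Bcl2a1d did so too, at 335, 369.8 and 325 CPM against 219, 233 and 244 CPM and 174, 185 and 164 CPM against 77.3, 115 and 119 CPM, though these near-identical copies can share reads.

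Other signalling lists had smaller medians. In the TGF-β pathway 4 of 18 genes were lower and 1 higher at an unadjusted p under 0.05 (median -0.20, or -0.08 against WT replicate 1 alone). Skil, a repressor of SMAD proteins, was at 90.0, 191 and 201 CPM in WT and 84.5, 70.3 and 61.3 CPM in miR-155KI, and Smad4, the shared SMAD, at 11.3, 12.1 and 12.0 CPM and 5.36, 6.53 and 4.33 CPM. WT replicate 1 was with the other WT libraries for Smad4 but near miR-155KI for Skil. In the mTOR pathway 4 of 20 genes were lower and 0 higher (median -0.08). Rptor, the scaffold of mTORC1, was at 72.7, 102 and 104 CPM and 60.4, 59.5 and 42.3 CPM, Mtor at 44.1, 42.8 and 42.9 CPM and 28.3, 31.5 and 33.1 CPM, and Foxo3, a factor that mTORC2 and AKT hold out of the nucleus, at 97.6, 99.3 and 117 CPM and 66.4, 44.6 and 65.2 CPM. These 3 were lower in every miR-155KI library, while Rictor, the scaffold of mTORC2, overlapped at 33.3, 48.6 and 53.7 CPM in WT and 37.1, 31.7 and 34.8 CPM in miR-155KI. Sgk1, a kinase downstream of mTORC2, was at 67.2, 74.2 and 38.7 CPM and 50.2, 85.7 and 76.7 CPM, also with overlap.

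Common γ chain receptors and SOCS genes counted 5 lower and 0 higher of 17 (median -0.15, or -0.25 without miR-155KI replicate 2). Cish, an inhibitor of cytokine signals, was at 117, 162 and 145 CPM in WT and 113, 99.8 and 88.5 CPM in miR-155KI, and Socs3, a related inhibitor, at 60.1, 174 and 153 CPM and 74.3, 60.6 and 73.7 CPM. Cish did not overlap between the groups, and Socs3 did through WT replicate 1. Among 24 SLAM and T cell receptor signalling genes 2 were higher and 3 lower (median 0.08, or 0.16 without miR-155KI replicate 1, 0.04 without miR-155KI replicate 2 and 0.01 against WT replicate 1 alone), with the kinase Fyn at 53.9, 59.8 and 53.5 CPM in WT and 39.9, 31.7 and 40.4 CPM in miR-155KI. Costimulatory and inhibitory receptors counted 1 higher and 1 lower of 19 (median 0.07), and Tigit, an inhibitory receptor, was at 11.3, 24.3 and 25.1 CPM and 8.52, 6.47 and 7.31 CPM. Chemokine receptors counted 1 and 1 of 14 (median 0.09), the Bcl-2 family 1 higher and 3 lower of 14 (median -0.07), PRC2 and BTB factors 0 higher and 2 lower of 18 (median -0.19, or -0.01 with the covariate of Y-linked RNA to Xist, and -0.06 or -0.10 when replicate 3 of WT or of miR-155KI was omitted), and interferon-stimulated genes 1 higher and 2 lower of 31 (median 0.08). Heat shock genes counted 0 higher and 2 lower of 15 (median -0.06). The medians of the mTOR, Bcl-2, heat shock, interferon, chemokine receptor and costimulatory lists each changed sign under at least 1 alternative, so no direction is drawn from them.

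Proliferation genes were higher in level mainly through miR-155KI replicate 1. Of 30 genes, 11 were higher and 0 lower at an unadjusted p under 0.05, and the median of 0.70 became 0.19 without that library. Kif11, a mitotic motor, was at 13.8, 14.9 and 11.5 CPM in WT and 48.2, 21.4 and 20.1 CPM in miR-155KI, and Ccnb1, cyclin B1, at 10.02, 11.2 and 7.08 CPM and 51.5, 12.6 and 15.1 CPM. The summed level of the list was 1416 to 1839 CPM in WT and 2612, 1640.2 and 1701 CPM in miR-155KI. The double-positive thymocyte markers were highest in that replicate too, and their part in the proliferation result was not tested. Of 32 cytosolic ribosomal protein genes, 31 were at a lower level in miR-155KI cells, 13 of them without overlap and 5 at an unadjusted p under 0.05. Of all genes, 8.71% were lower without overlap and 6.6% were lower at that p. The list median was -0.18, and it was -0.07 without miR-155KI replicate 1 and -0.11 without WT replicate 1. Rpl5, of the large subunit, was at 1635, 1758 and 1881 CPM in WT and 1073, 1145 and 1113 CPM in miR-155KI, and Rpl23 at 1100.1, 1258 and 1295 CPM and 757, 803 and 842 CPM, where the genes' pseudogenes may share reads. Respiratory chain genes (median 0.02, 0 of 25 at an unadjusted p under 0.05) and glycolysis genes (median 0.00, 1 of 15 lower) had medians near that of all genes, which ranged from -0.04 to 0.14 and from -0.07 to 0.03 as single libraries were left out. The 8 γδ T cell markers summed to 495 to 855 CPM in WT and 806 to 929 CPM in miR-155KI, with WT replicate 1 again the highest WT library, and 4 of 7 tested were higher at an unadjusted p under 0.05 (median 0.52, or 0.02 against WT replicate 1 alone).

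**Figure D3:**
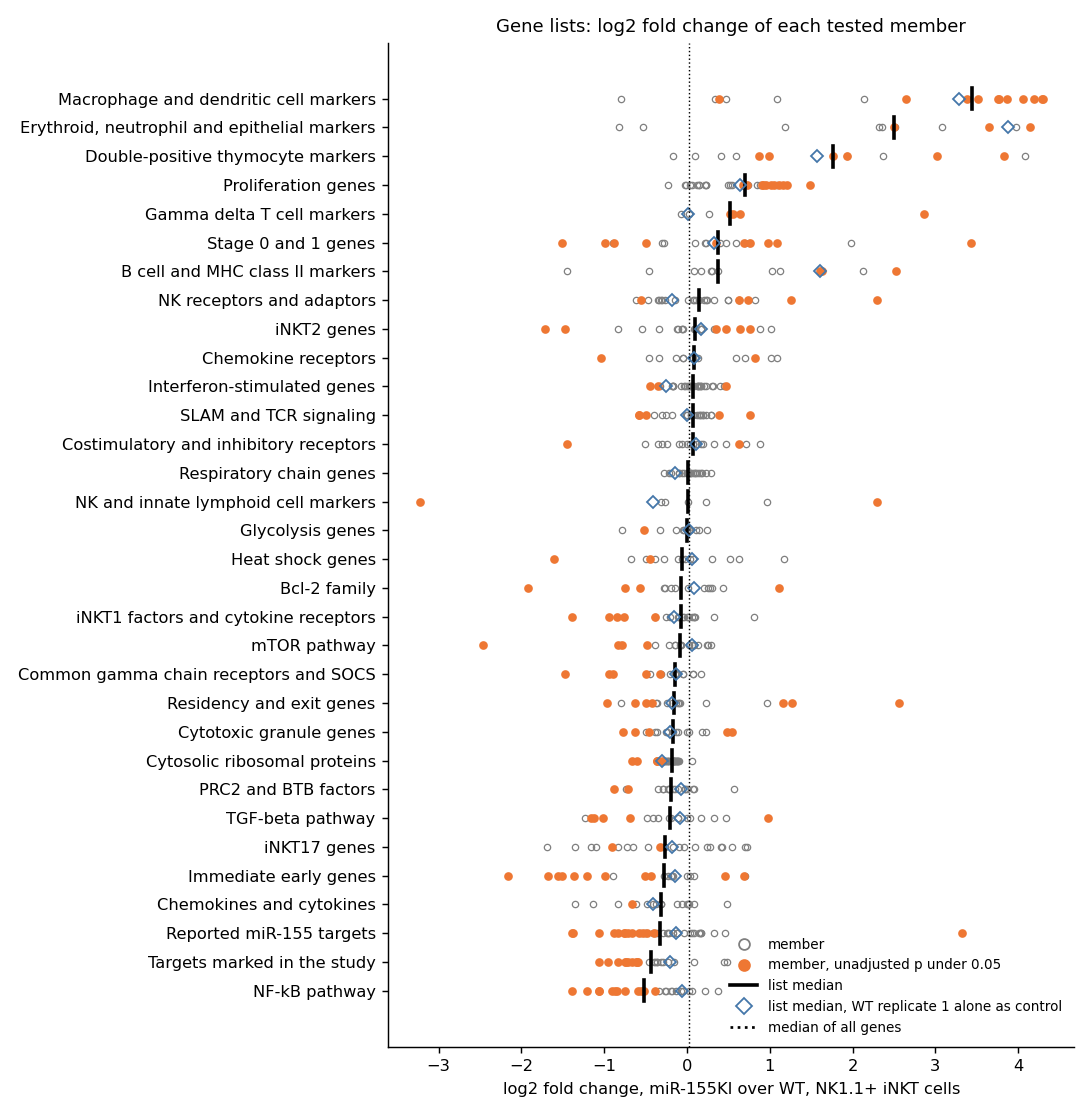
Log2 fold change (miR-155KI over WT, all 6 NK1.1+ libraries) of each tested member of 32 gene lists, with unadjusted p under 0.05 in orange, the list median as a bar and the same median against WT replicate 1 alone as a diamond. The NF-κB list has the lowest median (-0.51) and moves to -0.06 with that control, while the macrophage list has the highest (3.45) and stays far above the median of all genes (0.02, dotted).

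Candidate targets of miR-155 were mostly at a lower level in miR-155KI, with 28 of 38 reported targets below WT where 47.6% of all genes lay below. Of the 38, 13 were lower and 1 higher at an unadjusted p under 0.05, against 6.6% and 5.24% of all genes, with a median of -0.33. The exception was Spi1, which encodes the myeloid factor PU.1, at 0.299, 0.517 and 0.983 CPM in WT and 9.23, 8.72 and 0.244 CPM in miR-155KI. The 22 targets marked in the study, which it picked in the NK1.1- libraries of this series and which are therefore not independent evidence of a direction, had 10 lower and 0 higher and a median of -0.43. Against WT replicate 1 alone these medians were -0.13 and -0.20. None of these genes passed the adjusted threshold. Jarid2, Tab2, Rictor, Trim32, Fos and Map3k14 are in both lists, and Jarid2, Tab2 and Map3k14 are among the 13 lower reported targets. The lists are therefore not separate evidence.

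Jarid2, a cofactor of the PRC2 histone methyltransferase with 2 of the 8mer sites printed above, was at 93.6, 147 and 154 CPM in WT and 85.2, 79.7 and 75.7 CPM in miR-155KI (-0.71 ± 0.19, adjusted p = 0.260). Every miR-155KI library lay below every WT library, but WT replicate 1 lay nearer to miR-155KI, and against it alone the log2 fold change was -0.23. Without it the value was -0.89 (adjusted p = 0.0268). Tspan14, a tetraspanin partner of ADAM10 that also holds 2 such sites, was at 125, 150.0 and 156 CPM and 84.7, 90.9 and 59.2 CPM (-0.88 ± 0.18, adjusted p = 0.201), and -0.69 against WT replicate 1. Ets1, a factor of NK and iNKT development that holds an 8mer, was at 571, 636 and 614 CPM in WT and 449, 448 and 487 CPM in miR-155KI (-0.40 ± 0.12), without overlap between the groups. Mef2a, a MADS-box factor, was at 60.3, 77.0 and 67.1 CPM and 37.6, 42.3 and 49.4 CPM, and the corepressor Tle4 at 60.0, 76.7 and 79.1 CPM and 42.9, 44.2 and 48.6 CPM, each with an 8mer and without overlap.

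Beyond named targets, the site itself was followed over all genes. Of 20937 genes with an annotated 3′ UTR, 629 (3.0%) held the 8mer AGCATTAA on the transcribed strand, and 389 of 11259 tested genes (3.46%) did. A gene was classed by its best match, where the 7mer-m8 AGCATTA, the 7mer-A1 GCATTAA and the 6mer GCATTA are parts of the 8mer. By class, the median was -0.15 on the log2 scale for an 8mer, -0.06 with a 7mer-m8, -0.08 with a 7mer-A1, -0.04 with a 6mer and 0.04 for 8853 genes with none. The level was lower in miR-155KI for 62.5% of the 8mer genes and for 45.8% of those with none, and 15.4% against 6.12% were lower at an unadjusted p under 0.05. The median also went from 0.03 with 0 sites of 7 or 8 bases to -0.07 with 1, -0.13 with 2 and -0.17 with 3 or more. Genes are not replicates and the classes differ in 3′ UTR length (median 2740 bases with an 8mer and 927 with none), so these values are a description with no test. The median of the 8mer genes minus that of genes with none was -0.18, and -0.10 against WT replicate 1 alone.

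**Figure D4:**
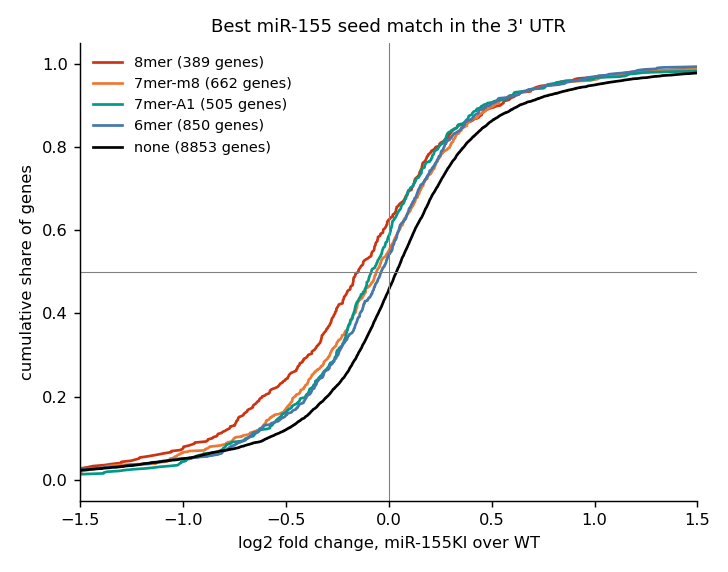
Cumulative share of tested genes against log2 fold change (miR-155KI over WT, NK1.1+), by the best miR-155 seed match in the longest annotated 3′ UTR, with the axis cut at 1.5 on either side. The 8mer curve crosses the midline at -0.15 and the curve of genes with no match at 0.04.

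Rab8b, a GTPase of vesicle traffic, was at 142, 159.9 and 174 CPM in WT and 94.3, 103 and 104 CPM in miR-155KI (-0.66 ± 0.14, adjusted p = 0.201). Plekhm1, a lysosomal fusion adaptor, was at 50.4, 51.1 and 49.1 CPM and 31.4, 15.0 and 24.3 CPM (-1.09 ± 0.26, adjusted p = 0.218), and Fbxl2, an F-box protein, at 2.09, 2.07 and 1.97 CPM and 0.194, 0.281 and 0.244 CPM. All 3 kept the WT libraries together, and against WT replicate 1 alone the log2 fold changes were -0.51, -1.11 and -3.10. Tgfa, a ligand of the EGF receptor, was at 17.1, 24.2 and 26.4 CPM in WT and 6.97, 1.46 and 4.39 CPM in miR-155KI (-2.40 ± 0.50, adjusted p = 0.201). An 8mer did not fix the direction, since Ntrk3, the receptor for neurotrophin-3, was at 24.7, 19.5 and 21.9 CPM in WT and 44.7, 44.1 and 34.6 CPM in miR-155KI, and Cacybp, a calcyclin-binding protein, at 88.5, 78.1 and 74.6 CPM and 114, 109 and 111 CPM. Both were higher in each miR-155KI library.

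**Figure D5:**
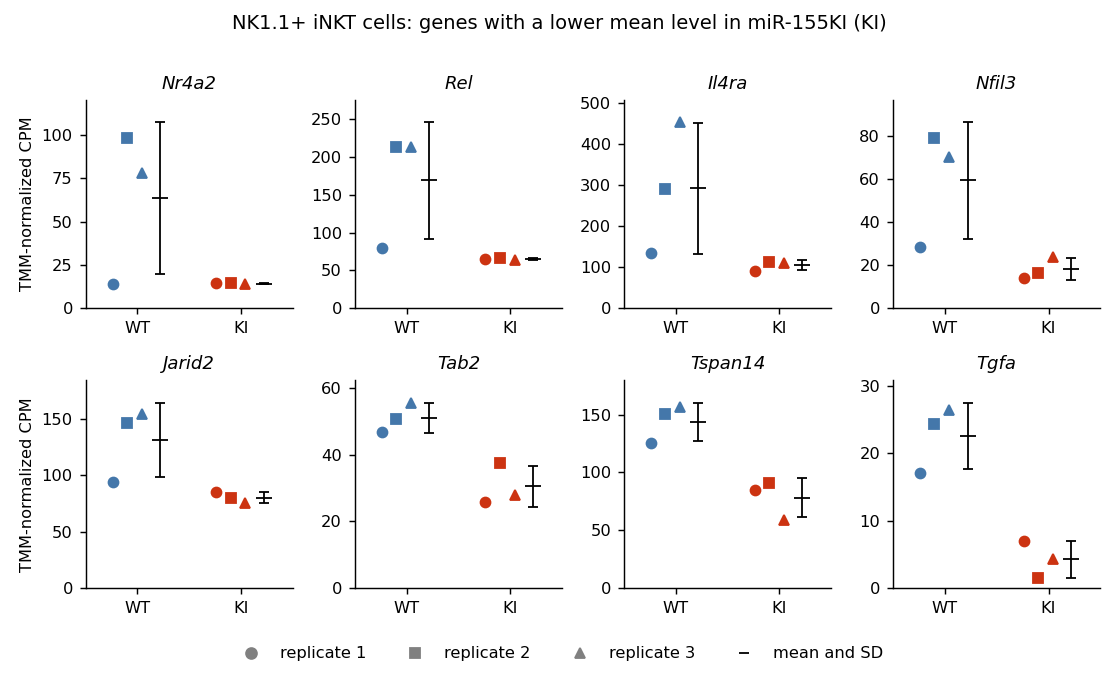
TMM-normalized CPM of 8 genes with a lower mean in miR-155KI (KI), in each NK1.1+ library (linear axes from 0, symbols are replicates, bars are the mean and SD of 3 libraries). For Nr4a2, Rel, Il4ra and Nfil3 WT replicate 1 (circle) lies near the miR-155KI libraries, for Jarid2 it lies between, and for Tab2, Tspan14 and Tgfa all WT libraries lie well above.

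Changes were ranked among genes at an unadjusted p under 0.05, at 10 CPM or more in a group and without overlap. Predicted genes, clone names and pseudogenes were left out. Of the rest, Tgfa, Bend3, Sik1, Epas1, Bcl2l11, Chad, Fzd5, Metrnl, Runx2 and Nfil3 had the largest negative log2 fold changes, from -2.40 to -1.72. Chad, the matrix protein chondroadherin, was at 27.7, 20.4 and 19.6 CPM in WT and 7.43, 6.36 and 5.54 CPM in miR-155KI (-1.81 ± 0.30, adjusted p = 0.194), and Fzd5, a Wnt receptor, at 13.6, 12.1 and 11.9 CPM and 5.68, 3.38 and 1.89 CPM. WT replicate 1 was the highest library for both, so their difference was larger against it alone (-2.11 and -1.90). Runx2, a Runt family factor, was at 15.7, 22.5 and 21.5 CPM and 7.75, 1.52 and 8.89 CPM. For Epas1, which encodes HIF-2α, WT replicate 1 was instead near miR-155KI, at 15.6, 38.4 and 47.8 CPM in WT and 12.4, 5.63 and 7.86 CPM in miR-155KI. The positive end held C1qc, C1qb, C1qa, Lyz2, Vcam1, Apoe, Csf1r, Gdf15, Adgre1 and Mir155hg, from 4.30 to 3.26, and most of these are the macrophage genes described above.

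The genotype effect in NK1.1+ cells was compared with that in the NK1.1- pool by the interaction of genotype and pool over all 12 libraries. It was called for 4 of 14401 genes (0.0278%) at an edgeR adjusted p under 0.05, and for 23 with the replicate number as a block within genotype. Aqp11, a water channel, was at 9.12, 8.91 and 9.49 CPM in WT NK1.1+ cells and 34.1, 24.1 and 17.5 CPM in miR-155KI, a log2 fold change of 1.46 where NK1.1- cells had -1.54 (adjusted p of the difference = 0.00577). For Mir155hg the fold changes were 3.26 and 3.49 (adjusted p of the difference = 0.863). For C1qc they were 4.30 and -0.10, and that difference missed the threshold (adjusted p = 0.217). The count was 46 without miR-155KI replicate 1, 14 without miR-155KI replicate 3 and 7 without miR-155KI replicate 2.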

How the data were processed

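Sorted thymic NK1.1+ iNKT cells gave 6 RNA-seq libraries, 3 per genotype. The authors deposited whole-number read counts per gene and a second table of values they call CPM, a signal that equals the count times 1 factor per library. Per the labels libraries came from SMART-Seq v4 cDNA, whereas the methods name TruSeq. The submitters' processing notes name bcl2fastq 2.17.1.14 and GRCm38 (mm10), and the aligner and counter are not given in the sources used here. Strand use is not stated. Of 48709 names, 27 had become dates in a spreadsheet (0.249% of counts).

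Counts were filtered (filterByExpr), TMM-scaled and tested with edgeR 4.0.16 (R 4.3.3, robust quasi-likelihood, 2 groups), with Benjamini-Hochberg adjustment at 0.05. The deposited signal table served only in a limma 3.58.1 fit of log2(CPM + 1). DESeq2 1.42.0 and the other alternatives are given in the closing section, and the edgeR step was tested on simulated counts. Gene positions and 3′ UTRs came from GENCODE M21, matched by symbol. The 3 columns per group were matched to the labels by name, and 0 columns belonged to no sample.

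The members, the 32 lists and the tests were chosen with earlier results of these data known. Named were called genes, the 10 largest changes per direction (unadjusted p under 0.05, at least 10 CPM, no overlap, predicted genes and pseudogenes left out), up to 4 members per list, the identity markers, genes the study names, sex-linked genes, and 5 genes with an 8mer site per direction. Genes with an interaction call are named as well, and Ntrk3, Cacybp and Spi1 come from the last part of that rule. Replicate numbers did not pair the genotypes (correlation of same-numbered deviations -0.080, 0.0119 and -0.000595). No 2 libraries agreed within sampling noise (chi-square per degree of freedom 13.9 to 53.5). Precision rests on 3 libraries per group and on 14302160 to 20518257 counts per library.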

Additional observations from a re-analysis of the deposited data

Results flagged for a closer look

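The effect of miR-155KI differed between NK1.1+ and NK1.1- cells in 4 genes by the interaction term in edgeR's quasi-likelihood test over 12 libraries. For Csf1, the cytokine M-CSF, the difference (NK1.1+ minus NK1.1-) was -1.97 on the log2 scale (adjusted p = 0.00547). Its level was 12.9, 10.7 and 11.0 CPM in WT and 10.7, 9.51 and 7.49 CPM in miR-155KI in the NK1.1+ pool, where the log2 fold change was -0.32 against 1.65 in the other pool. For Sostdc1, a secreted BMP antagonist, the difference was -3.97 (adjusted p = 0.000789), from 0.01 and 3.98 in the respective pools. For Parm1, a mucin-like protein, it was -3.10 (adjusted p = 0.0438), with -1.20 and 1.89. For Aqp11 it was 2.99 (adjusted p = 0.00577), with 1.46 and -1.54. Groups of 3 libraries are too small for the test of single outlying samples, so none was run.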

How the results depend on the processing

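The count of 3 genes higher and 0 lower became 166 and 150 in DESeq2, 144 and 138 with no low-count filter, 42 and 18 with all 12 libraries in one fit, and 1 and 0 in limma-voom, against WT replicate 1 alone (spread taken from the 3 miR-155KI libraries) and after adding as covariate the log2 ratio of Y-linked RNA to Xist. Leaving out single libraries gave 1 to 15 higher and 0 to 110 lower, both highest counts without WT replicate 1. A replicate block gave 4 higher and 3 lower, and since the numbers do not pair the genotypes this says nothing of the size of the effect. RLE scaling and the fit without the robust option gave 3 and 0, and at least 10 counts in every library and limma on log2(CPM + 1) gave 4 and 0. The interaction was called for 140 genes in DESeq2, for 23 with the replicate block within genotype, and for 3 to 46 as single libraries were left out, the highest without miR-155KI replicate 1. Same-numbered libraries of the 2 pools correlated by 0.0988 to 0.293 in WT and 0.0611 to 0.117 in miR-155KI. Differently numbered libraries were not compared across the pools, so these values do not settle whether the numbering pairs them. The main interaction fit took the 12 libraries as unpaired. The 8mer difference of -0.18 was -0.16 with any annotated 3′ UTR, and from -0.22 to -0.15 without single libraries. Settings chosen after seeing the data gave -0.10 against WT replicate 1 alone, -0.11 after that covariate and -0.18 at 10 CPM or more in WT. Of the values for 169 named genes under alternatives, 2435 kept their direction and side of the threshold or moved by less than the spread, 260 moved, 12 lost and 158 gained a call. No called value changed sign, but 72 values of 23 genes with no call did, 17 of them against WT replicate 1 alone, Il21r and Klrb1c among them. The cause was not tested.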

Other observations

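The list of reported targets held 1 gene that was higher at an unadjusted p under 0.05, Spi1, and the 8mer genes that were higher included Csf1r. Both are genes of myeloid cells. Spi1 was at 0.299, 0.517 and 0.983 CPM in WT and 9.23, 8.72 and 0.244 CPM in miR-155KI, so replicate 3 of miR-155KI did not share the higher level of replicates 1 and 2. Thoc2, a subunit of an RNA export complex, held 2 sites and was at 69.7, 63.1 and 64.5 CPM in WT and 84.3, 96.2 and 89.9 CPM in miR-155KI, without overlap. Trdc, the constant gene of the T cell receptor δ chain, was at 1.15, 0.747 and 0.541 CPM in WT and 16.1, 0.394 and 1.40 CPM in miR-155KI, high only in replicate 1. Areg, the growth factor amphiregulin, was at 0.598, 2.87 and 2.85 CPM in WT and 0.129, 0.338 and 0.183 CPM in miR-155KI, and WT replicate 1 was again the lowest WT library.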
